A study of Homo sapiens with 4 samples.

Results

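Short m5C peaks are the narrowest entries of the 2 deposited m5C peak lists of PANC-1, a line grown from a human pancreatic carcinoma. They were chosen by measured width alone: every peak whose end minus start was under 50 bp. There were 1314 such peaks among 8919 in all, namely 417 of the 3177 peaks of replicate 1 and 897 of the 5742 peaks of replicate 2. Width came from the same peak calls as everything else in a list, so it is given as a description, and no difference between short and longer peaks was tested. All 4 samples, 2 named m5C IP (immunoprecipitated) and 2 named m5C Input, came from cells pretreated with Evs (extracellular vesicles) derived from CAFs (cancer-associated fibroblasts), so there is no group without vesicles and their effect was not compared. Each list is named in the records of 1 IP and 1 Input sample that share a replicate number. The labels do not state whether the replicates were separately grown, and differences between them may be technical. Read counts are not part of the lists, which leaves the depth under each peak unknown. The numbers in the peak names run past the count of peaks, for example to 35410 in replicate 1 and 123286 in replicate 2. Whether each list is a part of a larger set of calls was not tested. No genome or annotation of the lists' build, hg19, was used here, so sites are given by 1-based hg19 position, without host gene or sequence.

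5-Methylcytosine (m5C) is a methylated RNA base, laid down on messenger RNA mainly by the methyltransferase NSUN2 and read by proteins such as ALYREF, which acts in nuclear export, and YBX1, which acts in transcript stability. In m5C MeRIP-seq, RNA is broken into pieces, the pieces that an antibody against m5C pulls down are compared with input RNA, and a peak is a stretch where pulled-down reads pile up over input. Because messenger RNA is spliced, reads from 1 piece of RNA can fall on several exons, and a stretch that is continuous in the transcript can appear on the genome as several separate parts. All short peaks were shorter than 1 sequencing read, which was 150 bp.

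In replicate 1, 13.1% of peaks were short (11.996 to 14.3, a 95% Wilson interval, as are all intervals below). In replicate 2 the share was 15.6% (14.7 to 16.6), and it was 14.7% of both lists together. These intervals cover the counting of peaks only, as if peaks were independent. Peaks of 1 list share their samples and are not replicates, so intervals that overlap or lie apart are no test. The median short peak measured 27 bp in replicate 1 (interquartile range 14 to 38) and 29 bp in replicate 2 (19 to 39). The lists differed at the very lowest widths. In replicate 1, 7 peaks were 1 bp wide and 75 of the 417 short peaks (18.0%, 14.6 to 21.96) were under 10 bp. In replicate 2 no peak was 1 bp wide, 3 were 2 bp wide, and 41 of the 897 (4.57%, 3.39 to 6.14) were under 10 bp. The counts per width were therefore nearly level down to the smallest width in replicate 1 and fell off below 10 bp in replicate 2.

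**Figure D1:**
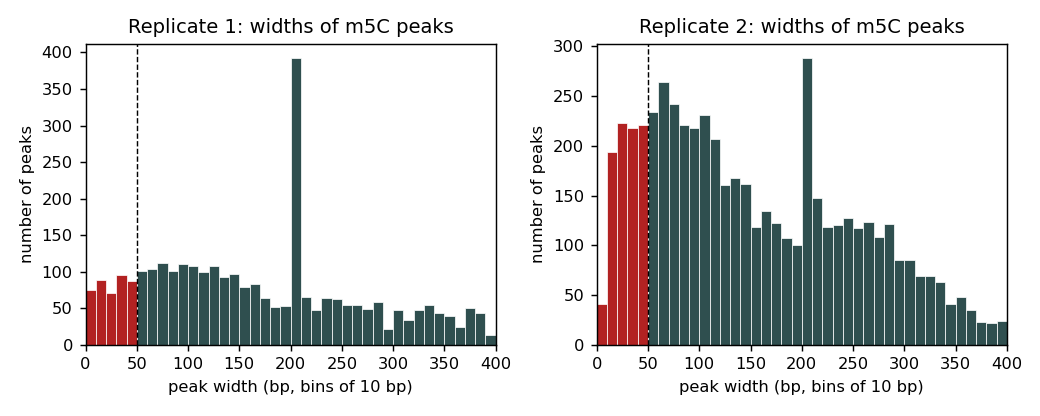
Number of m5C peaks (vertical axis) by peak width in bins of 10 bp (horizontal axis, up to 400 bp) in replicates 1 and 2; red bars are peaks under 50 bp, dark bars longer ones, and the dashed line marks 50 bp. The red bars join the dark ones without a gap at 50 bp in both lists, replicate 2 has its lowest red bar below 10 bp, and both lists have a spike in the bin from 200 bp.

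The threshold of 50 bp did not fall in a gap of the width distribution. In replicate 1 there were 41 peaks of 45 to 49 bp and 54 of 50 to 54 bp, both with a median score of 3100. That is also the median of the whole list, so equal medians there say little. In replicate 2 the counts were 123 and 122, with median scores of 289.69 and 323.58. The most frequent single width of either list lay far from it, at 200 bp, which 194 peaks of replicate 1 and 108 of replicate 2 had. Reading the start column as 1-based would move only the peaks of 49 bp, 5 in replicate 1 and 24 in replicate 2, to the other side.

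The score of a peak is the authors' own value, of unstated scale, and is compared within a list only. The lowest score of the whole list was 3.51 in replicate 1 and 50.13 in replicate 2. In replicate 1, 6.0% of short and 5.18% of longer peaks scored below 50. In replicate 1 short peaks reached the most frequent score of the list, 3100, about as often as longer ones: 224 of 417 (53.7%, 48.9 to 58.4) were at or above it, against 51.8% of longer peaks (49.98 to 53.7) and 52.1% of all peaks. Of the 224, 223 had exactly 3100 and 1 lay above it. Below 3100 the median score was 501 for the 193 short peaks and 680 for the 1329 longer ones. In replicate 2 short peaks stood a little lower in the list, with a median of 253 (interquartile range 125 to 442) against 287 (138 to 579.7) for longer peaks. There 3 of the 897 short peaks (0.334%, 0.114 to 0.979) reached 3100, against 0.743% of longer peaks (0.537 to 1.03) and 0.679% of all peaks. The intervals of these shares overlapped in both lists. Even the narrowest peaks reached that score: of the 7 peaks 1 bp wide in replicate 1, 5 had the score 3100.

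**Figure D2:**
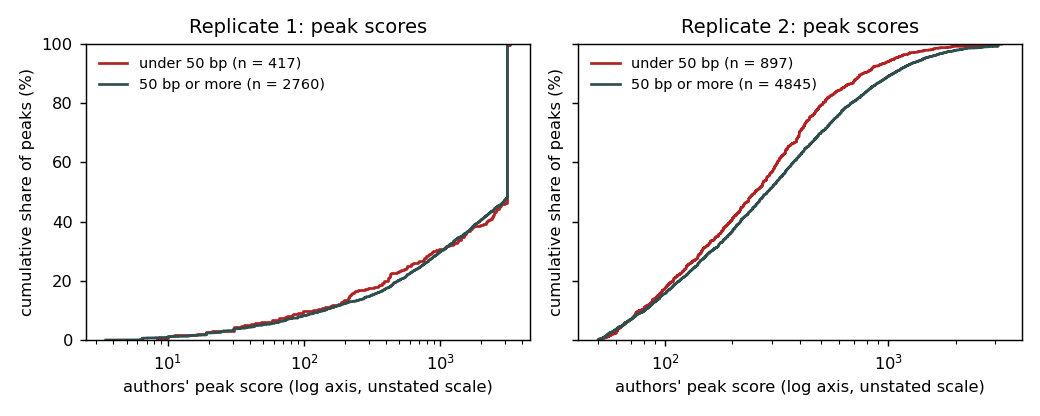
Cumulative share of peaks (vertical axis, %) by the authors' peak score (horizontal log axis, unstated scale), in red for peaks under 50 bp and in dark for longer peaks, with replicate 1 on the left and replicate 2 on the right. The curves of replicate 1 lie close together and jump together at 3100, and in replicate 2 the red curve lies above the dark one, which is to say at lower scores, over most of its course.

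The 5 highest-scoring short peaks of replicate 2 show the range of such sites. A pair on the plus strand, chr6:31962729-31962752 and chr6:31995467-31995490, each 24 bp wide with a score of 3100, is described below. A 2 bp peak at chr19:55879578-55879579 (minus strand) also had 3100 and was among the 3 narrowest of its list. The next were a 49 bp peak at chr1:186295319-186295367 (minus), with 3047, and a 19 bp peak at chrX:149010067-149010085 (plus), with 2605. In replicate 1 the highest short peak was 17 bp wide with a score of 3225, at chr19:17750318-17750334 (minus). The 4 others named by the same rule are the first in order of position among the 223 with the score 3100, all on chromosome 1, and measured 8 to 38 bp.

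Short peaks were seldom found again in the other deposited list. In replicate 1, 37 of 417 (8.87%, 6.51 to 11.99) overlapped a same-strand peak of replicate 2 by 1 bp or more, against 14.3% of longer peaks (13.1 to 15.7) and 13.6% of all peaks of the list. In replicate 2, 20 of 897 (2.23%, 1.45 to 3.42) overlapped a peak of replicate 1, against 8.46% of longer peaks (7.71 to 9.28) and 7.49% of all. The intervals of short and longer peaks did not overlap in either list, but a wider peak meets this rule more often by its length alone. With every peak of both lists set to 150 bp about its centre, the shares were 8.63% and 11.2% in replicate 1, and 2.45% and 6.65% in replicate 2. At that equal width the replicate 1 share of longer peaks lay within the interval of the short peaks, and the replicate 2 share did not. With the whole peak covered by the other list, a rule that shorter peaks meet more easily, the order turned in replicate 1, with 7.67% of short and 6.05% of longer peaks, and not in replicate 2, with 1.56% and 2.27%. With both lists limited to scores no lower than their medians, 5.36% of short and 8.32% of longer peaks of replicate 1 overlapped, and 1.93% and 5.004% in replicate 2. The share by 1 bp or more also rose with width among longer peaks, from 7.95% for those of 50 to 99 bp to 19.7% for those of 250 to 349 bp in replicate 1, and from 4.41% to 10.1% in replicate 2. The 7.95% lay below the 8.87% of short peaks, so a low share was not particular to short peaks in replicate 1.

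Where a short peak did overlap, the replicates nearly always began or ended it on the same base. Of the 37 overlapping short peaks of replicate 1, 34 (91.9%, 78.7 to 97.2) shared a start or end base with a partner in replicate 2, against 193 of 395 longer peaks (48.9%, 43.97 to 53.8) and 52.5% of all overlapping peaks of the list. Of the 20 in replicate 2, 18 (90%, 69.9 to 97.2) did, against 209 of 410 longer peaks (50.98%, 46.2 to 55.8) and 52.8% of all. The intervals of short and longer peaks did not overlap. Counting each pair once, 50 pairs had a short member on at least 1 side and lay on 19 chromosomes. In 44 of them exactly 1 edge was shared, in 1 both, and in 5 none. Among the 385 pairs with no short member the counts were 147 with 1 shared edge (38.2%, 33.5 to 43.1), 35 with both (9.09%, 6.61 to 12.4) and 203 with none (52.7%, 47.7 to 57.7).

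The shared edge fell equally often on either side. It was the 5′ edge, by the strand of the peak, in 22 of the 44 pairs and the 3′ edge in the other 22. In these 44 pairs the edges that were not shared lay a median of 70.5 bp apart (interquartile range 38.5 to 125, range 1 to 583), and in 40 of them 10 bp or more. In 45 of the 50 pairs, those with a shared edge, 1 peak lay wholly inside the other, as a shared edge entails. The partners of short peaks had a median width of 91 bp for the replicate 1 short peaks and 90.5 bp for those of replicate 2, against 240 and 205 bp for the partners of longer peaks. These partners stood near the lower quartile of the lists they belong to, which was 71 bp in replicate 2 (median 141 bp) and 86 bp in replicate 1 (median 167 bp). No test of partner width is given, because peaks of 1 list are not replicates.

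**Figure D3:**
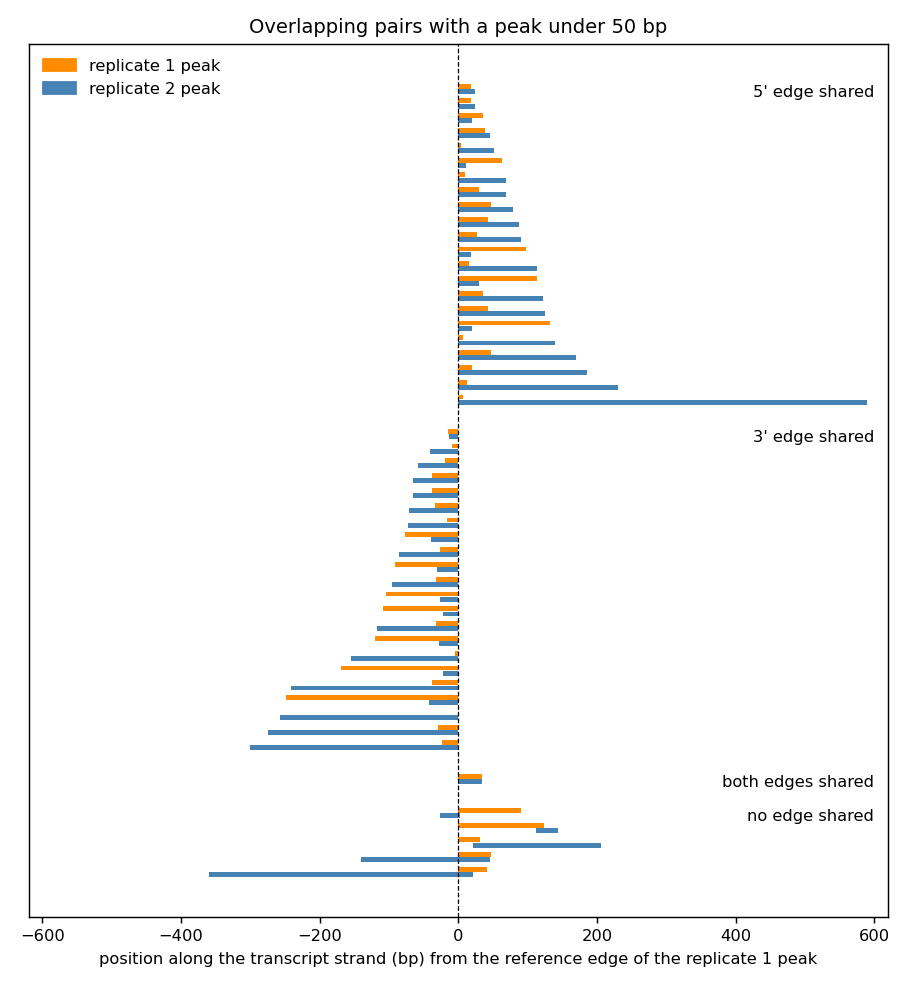
Each of the 50 overlapping pairs with a peak under 50 bp, drawn to scale as a replicate 1 peak (orange) and a replicate 2 peak (blue) along the direction of the transcript (horizontal axis, bp). Pairs are aligned at 0 on their shared edge, or on the 5′ edge of the replicate 1 peak where both or no edge is shared. In the 2 upper blocks, of 22 pairs each, both bars start or end at 0 and reach different lengths, and 5 pairs at the bottom share no edge.

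In 7 of the 50 pairs both peaks were under 50 bp, and all 7 shared an edge. The 1 pair identical at both ends was chr1:43159161-43159194 (plus strand), 34 bp wide, with a score of 697 in replicate 1 and 1244 in replicate 2. A replicate 1 peak at chr1:32146631-32146668 (minus strand, 38 bp, score 1624) ended on the same base as a replicate 2 peak that began at 32146624 (45 bp, 739). At chr1:145576088-145576102 (plus strand) the peak was 15 bp wide in replicate 1 (score 3100) and, with the same end, 14 bp in replicate 2 (162). The last 2 of these pairs differed by 7 and 1 bases at their other edge. The most uneven pair, on the minus strand of chromosome X, began at 16685637 in both lists and measured 9 bp in replicate 1 (score 3100) and 41 bp in replicate 2 (591). Minus-strand peaks ending at 149468163 on chromosome 7 measured 35 bp in replicate 1 (score 3100) and 20 bp in replicate 2 (372).

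The remaining 2 pairs of short peaks were alike in widths and scores. On chromosome 6, plus-strand peaks began at 31962729 in both replicates and again at 31995467 in both, 32738 bp further on. At each place the replicate 1 peak was 18 bp wide and the replicate 2 peak 24 bp, and all 4 scores were 3100. A second set of alike pairs joined the sex chromosomes, near the ends of their long arms, where X and Y share a pseudoautosomal sequence. The replicate 1 peak was 38 bp wide on both, ending at 155127913 on X and at 59230919 on Y, and the replicate 2 peak was 66 bp wide and ended on the same base. Scores were 3100 on both in replicate 1, and 140 on X and 165 on Y in replicate 2. Whether the same reads were placed at both copies was not tested.

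The widest partners showed how far the replicates could differ at 1 place. A 6 bp replicate 1 peak at chr1:143913138-143913143 (minus strand, score 83.1) lay at the 5′ edge of a replicate 2 peak of 589 bp (score 90.9). A 1 bp replicate 1 peak at base 42946007 of chromosome 6 (minus strand, score 3100) fell on the 3′ edge base of a 257 bp replicate 2 peak (score 357). That partner was not among the 3 widest. Conversely, a 42 bp replicate 2 peak at chr6:76459099-76459140 (plus strand, score 649) shared its 3′ edge with a 248 bp replicate 1 peak (score 665). A 41 bp replicate 1 peak at chrX:129059131-129059171 was 1 of the 5 pairs with no shared edge, overlapping a 381 bp replicate 2 peak over 21 bp.

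Scores of the overlapping short peaks are given beside those of the others for description. In replicate 1, 24 of the 37 (64.9%, 48.8 to 78.2) had a score of 3100 or more, and 200 of the 380 short peaks without overlap did (52.6%, 47.6 to 57.6). In replicate 2 the median score was 498 for the 20 with overlap and 251 for the 877 without. Of the 3 short peaks of that list at 3100, 2 overlapped, both in the alike pairs on chromosome 6. Near misses were few in both width classes: 1 of the 380 non-overlapping short peaks of replicate 1 and 3 of the 877 of replicate 2 lay within 100 bp of a peak of the other list (0.263% and 0.342%). Among longer peaks the counts were 11 of 2365 (0.465%) and 8 of 4435 (0.180%). The median gap to the other list among non-overlapping short peaks was 81905.5 bp in replicate 1 and 317218 bp in replicate 2, against 95959 and 252160 bp for longer peaks.

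Within a list, a short peak had a same-strand neighbour within 10 kb in 101 of 417 cases in replicate 1 (24.2%, 20.4 to 28.6), against 21.1% of longer peaks (19.6 to 22.7) and 21.5% of all. In replicate 2 it did in 265 of 897 cases (29.5%, 26.6 to 32.6), against 23.7% of longer peaks (22.5 to 24.9) and 24.6% of all. The intervals of short and longer peaks were apart in replicate 2 and overlapped in replicate 1. Neighbouring peaks are not independent of each other, so these intervals are too narrow to serve as a test of the difference. Without the 14 short peaks of 3 regular arrays, described below, the replicate 1 share was 87 of 403 (21.6%, 17.8 to 25.9). Each of the 14 has a neighbour by the definition of a cluster, so leaving them out could only lower the share. Clusters of longer peaks were kept, so this value is not a like comparison with the 21.1%. With the width threshold at 30 bp the order turned round in replicate 1, with 16.7% of short and 21.9% of longer peaks. It also turned round at shorter range in both lists. Within 1 kb the shares were 5.76% of short and 9.24% of longer peaks in replicate 1, and 3.23% and 4.09% in replicate 2, with intervals that overlapped in both lists. Most peaks of either width class stood alone. No same-strand peak of their list lay within 10 kb for 316 of 417 (75.8%) and 632 of 897 (70.5%) short peaks. For longer peaks the shares were 78.9% in replicate 1 and 76.3% in replicate 2.

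**Figure D4:**
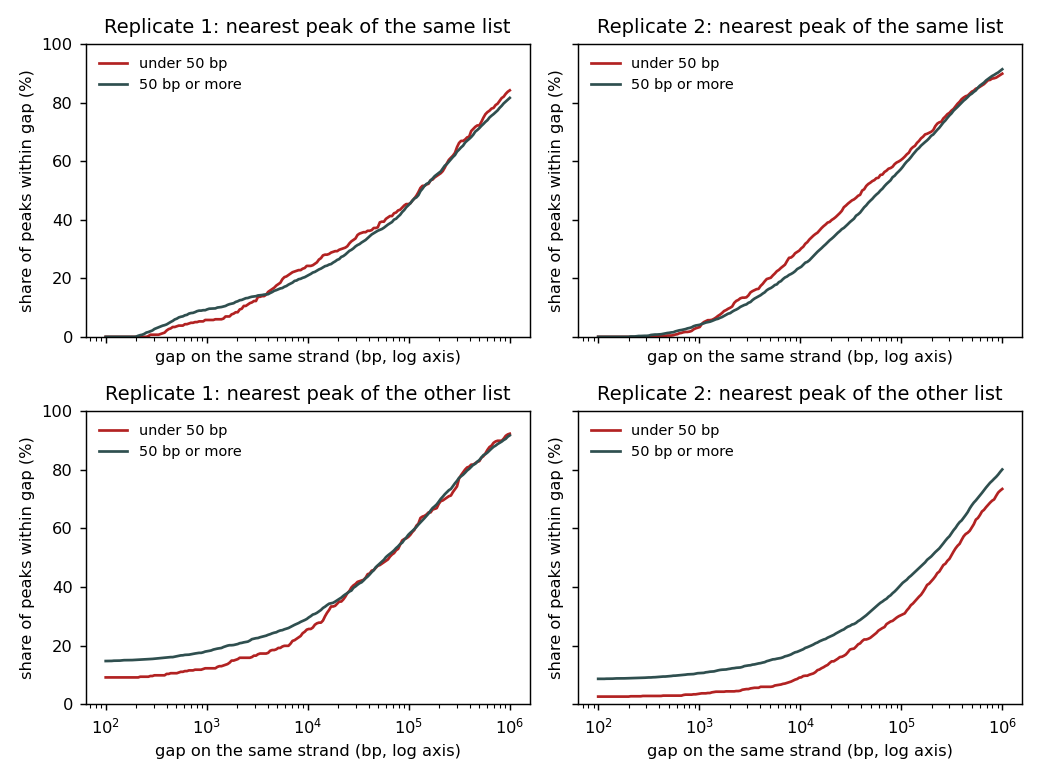
Share of peaks (vertical axis, %) whose nearest same-strand peak lies within a given gap (horizontal log axis, bp), for the same list (upper row) and the other list (lower row, overlaps counted as within), with red for peaks under 50 bp and dark for longer peaks. In the upper row red lies below dark at 1 kb and above it at 10 kb, and in the lower row red starts lower at the left edge, at 9.11% against 14.7% in replicate 1 and 2.56% against 8.63% in replicate 2.

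Within the short peaks, neighbours were more frequent among the wider ones. Of those of 25 bp or more, 32.1% in replicate 1 (26.4 to 38.5) and 32.3% in replicate 2 (28.6 to 36.3) had a neighbour within 10 kb. Of those under 25 bp, 15.03% (10.7 to 20.7) and 24.7% (20.3 to 29.6) did. The narrower peaks had fewer neighbours in both lists, with intervals that did not overlap in replicate 1 and did in replicate 2. Without the arrays, whose 14 peaks all measured 25 bp or more, the replicate 1 share for 25 bp or more was 58 of 210 (27.6%, 22.0 to 34.0). Leaving the arrays out could only lower it. At 50 to 99 bp the share was lower than at 25 to 49 bp, with 19.1% in replicate 1 and 26.1% in replicate 2. Among peaks from 200 to below 250 bp it was 34.5% in replicate 1 and 20.5% in replicate 2. The highest share was therefore not among short peaks in replicate 1.

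The neighbours themselves were mostly longer peaks some kilobases away. They were short in 30 of 101 cases in replicate 1 (29.7%, 21.7 to 39.2; longer peaks 11.0%) and 49 of 265 in replicate 2 (18.5%, 14.3 to 23.6; longer peaks 18.8%). The 3 arrays, which held short peaks only, supplied 14 of the 30, and without them the replicate 1 share was 16 of 87 (18.4%, 11.6 to 27.8). Leaving them out could only lower this share too. The gap to the neighbours within 10 kb had a median of 2898 bp in replicate 1 (interquartile range 1460 to 5318) and 3169 bp in replicate 2 (1599 to 5769). No short peak lay closer than 255 bp to a neighbour in replicate 1 or 363 bp in replicate 2, and over all peaks the least gap was 200 and 202 bp. The neighbours had a median width of 95 and 110 bp, and a short peak and its neighbour together a median of 119 and 138 bp. Their joint width was close to the most frequent width of single peaks, between 195 and 205 bp, in 3 of 101 cases (2.97%) in replicate 1 and 9 of 265 (3.40%) in replicate 2, beside 1.89% and 3.14% for longer peaks. The neighbour lay downstream in 50 of the 101 (49.5%) and 138 of the 265 cases (52.1%), against 50.3% and 49.7% for longer peaks. Each peak has a name with a number of its own, so no 2 peaks are marked as parts of 1 call. The numbers run past the count of peaks in each list, so some numbers are missing from it. The neighbour carried the next number in 80 of 101 cases (79.2%) and 166 of 265 (62.6%), against 87.3% and 64.7% for longer peaks. A score equal to that of the neighbour, leaving 3100 aside, was found in 1 of 101 cases (0.99%) and 7 of 265 (2.64%, 1.29 to 5.35), against 1.20% and 0.785% (0.414 to 1.49) for longer peaks. The 5742 peaks of replicate 2 hold 4105 distinct scores. Exon positions were not used here, so whether a short peak and its neighbour lie on exons of 1 transcript was not tested.

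The closest neighbours in replicate 1 were a 42 bp peak at chr6:3015899-3015940 (plus strand, score 2473), 255 bp from a peak of 204 bp (2808), and a 36 bp peak at chr19:10076990-10077025 (minus strand, score 3100), 269 bp from a peak of 128 bp (3100). In replicate 2 they were a 29 bp peak at chr2:73486396-73486424 (minus strand, score 85.9), 363 bp from a peak of 253 bp (256), and a 25 bp peak at chr19:11304694-11304718 (minus strand, score 303), 392 bp from a peak of 740 bp (131). The neighbour was the wider peak in all 4.

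A few short peaks formed regular arrays, all in replicate 1. Linking same-strand peaks over gaps of up to 10 kb, 3 clusters held 3 or more short peaks in replicate 1 and 0 in replicate 2, while 9 and 31 held 2. In chr1:145327632-145356009 (plus strand), all 5 peaks were exactly 34 bp wide, with scores from 417 to 1522. Their starts were 9436, 4720, 4724 and 9464 bp apart, so the outer steps measured close to the sum of the inner steps. In chr1:148005471-148014114 (minus strand), 4 peaks had widths that alternated between 41 and 34 bp, with scores from 21.2 to 236. The 41 bp peaks began 6277 bp apart and the 34 bp peaks 6281 bp apart. In chr10:124355104-124374822 (plus strand), a 39 bp peak was followed by 4 peaks of 30 bp, and the starts of these 4 were exactly 4059 bp apart each time. Their scores were 3100, apart from 2738 for the last, and another 39 bp peak (score 156) began 12703 bp before the first. Whether these peaks lie on copies of 1 repeated sequence was not tested. Replicate 2 had no same-strand peak inside any of the 3 arrays. The 1 replicate 2 peak within 10 kb of an array was a short one of 10 bp at chr1:145318054-145318063 (plus strand, score 475), which began 9578 bp before the first array, beside outer steps of 9436 and 9464 bp within that array.

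The width of 34 bp was the most frequent short width of replicate 1, with 18 peaks, and 7 of them lay in the 2 arrays of chromosome 1. By contrast, the cluster with most peaks of both lists together, chr19:40367298-40433430 (minus strand), held 27 peaks and no short one. Its narrowest peak measured 182 bp.

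Short peaks were spread over the whole genome. They lay on all 24 chromosomes in replicate 1 and on 23 in replicate 2. The only short peak on Y was the replicate 1 peak of the alike X and Y pairs above. Chromosome 1 held the most short peaks, 52 and 104, and also the most peaks of any width, 324 and 604. It held 12.5% of short and 9.86% of longer peaks in replicate 1, and 11.6% and 10.3% in replicate 2. The plus strand held 51.3% of short peaks in replicate 1 (46.5 to 56.1) and 50.4% in replicate 2 (47.1 to 53.7). With Y left out, which held 2 and 9 peaks in all, the share of a chromosome's peaks that were short ran from 7.45% on chromosome 16 to 17.6% on chromosome 10 in replicate 1, and from 12.7% on chromosome 16 to 24.2% on chromosome 8 in replicate 2. The interval of the chromosome held the share of the whole list in 22 of 23 chromosomes in each replicate. The exceptions were chromosome 16 in replicate 1 (12 of 161 peaks, 4.31 to 12.6) and chromosome 8 in replicate 2 (39 of 161 peaks, 18.3 to 31.4). Among 23 intervals of 95%, a miss can be expected by counting alone, and neither exception was tested. Chromosome 8 did not stand out in replicate 1, with 8 of 84 peaks (9.52%, 4.91 to 17.7), and its intervals in the replicates did not overlap. Chromosome 16 had the lowest share in both lists. Across the 23 chromosomes the shares of the replicates were hardly related (Spearman's rho 0.06, a description over chromosomes of unequal peak number), and 18 of 23 had the larger share in replicate 2, the direction of the whole lists.

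**Figure D5:**
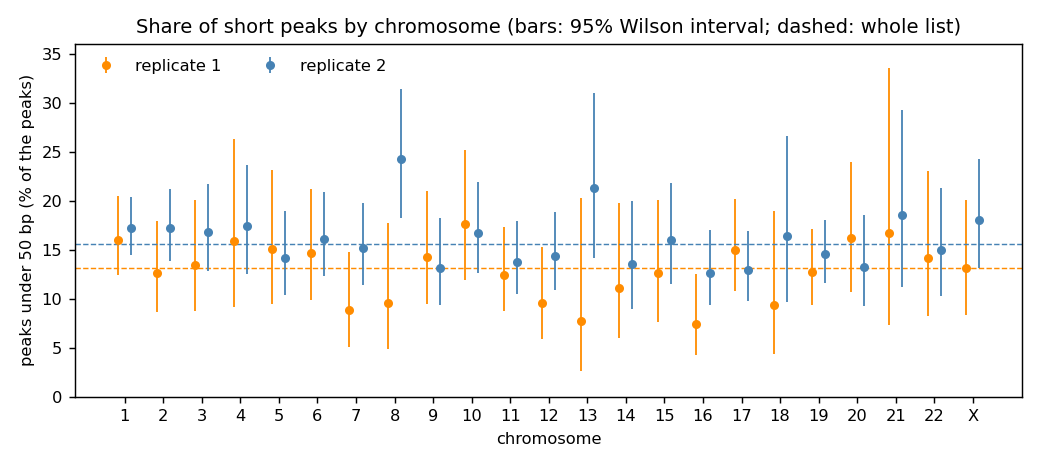
Share of a chromosome's peaks that were under 50 bp (vertical axis, %), for replicate 1 in orange and replicate 2 in blue, by chromosome without Y; points are shares, bars 95% Wilson intervals, and dashed lines the share in each whole list (13.1% and 15.6%). Most bars cross the line of their list; the blue bar of chromosome 8 lies above its line and the orange bar of chromosome 16 below its line.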

How the data were processed

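RNA of PANC-1 cells treated with fibroblast vesicles was sequenced after m5C immunoprecipitation and as input, with 2 samples of each kind, per the labels. The tool cutadapt 1.9.3 and the build hg19 are named, per the submitters' processing notes. Peak names begin with MACS. The caller's version, its thresholds, the aligner and the annotation were not given in the sources used here. Any of these could affect peak width. Each list has 6 columns, and the score in the deposited lists is the authors' value of unstated scale. The other deposited values used are the start and end of each peak in bases. All columns holding values were matched to a list, leaving 0 unused.

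Peaks with end minus start under 50 bp were taken as short. Gaps count the bases between facing edges on the same strand, overlaps need 1 bp, and clusters link peaks over up to 10 kb. Starts were read as 0-based and are printed 1-based. Shares have 95% Wilson intervals. No test was made, because width came from the same calls and each replicate has 1 list. Alternatives were other width thresholds, distances, overlap and edge rules, score filters and each replicate left out. Python 3.11.15, numpy 2.4.6, pandas 2.3.3, scipy 1.17.1, statsmodels 0.14.6 and matplotlib 3.10.9 were used, and the functions were tested on simulated data. The members and lists were chosen with earlier results of these data known.

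Regions named are all overlapping pairs of 2 short peaks, the 5 highest-scoring, 5 narrowest and 5 closest short peaks of each list, clusters with 3 or more short peaks, and the short peaks with the 3 widest partners, and a part of these is printed. The chromosome X and Y pair, the 1 bp peak at an edge, the cluster with most peaks and chromosomes 8 and 16 were singled out after their values were seen.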

Additional observations from a re-analysis of the deposited data

How the results depend on the processing

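Of 88 alternative values, 49 stayed within the 95% interval of the value reported and 39 did not. Some outcomes were fixed by the setting, so these counts do not measure robustness. Leaving out the cluster with most peaks could not change a share of short peaks, because it held none. In replicate 1 the median and upper quartile of the score are both 3100, the threshold already in use. A share of short peaks moves with the width threshold by definition. Leaving out the 3 arrays, an alternative chosen after seeing the data that could only lower the shares concerned, gave 4 of the 88. A neighbour within 10 kb was found for 21.6% of replicate 1 short peaks and 27.6% of those of 25 bp or more, both within their intervals. That neighbour was short for 18.4% and 18.97%, both outside their intervals. The share of short peaks followed the threshold: under 30, 75 and 100 bp it was 7.37%, 21.2% and 29.7% in replicate 1, and 7.98%, 26.3% and 36.2% in replicate 2. Leaving out each replicate in turn gave 13.1% to 15.6% for both lists together, and keeping only scores at or above the list median gave 14.4% in replicate 2. By chromosome, the lowest share was 3.57% in replicate 1 and 4.80% in replicate 2 under 30 bp, and 22.5% in replicate 2 under 75 bp. The highest was 26.4% in replicate 1 and 37.1% in replicate 2 under 75 bp, and 12.4% in replicate 2 under 30 bp.

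Under 30 bp in replicate 1, 16.7% of short and 21.9% of longer peaks had a neighbour within 10 kb, the reverse of the order under 50 bp. In replicate 2 the shares under 30 bp were 27.5% and 24.3%. Of the replicate 1 peaks under 30 bp, 59.0% scored 3100 or more, against 52.1% of all peaks of the list. Within 1 kb, 5.76% of short and 9.24% of longer peaks had a neighbour in replicate 1, and 3.23% and 4.09% in replicate 2. Within 50 kb the shares were 37.9% and 36.3%, and 52.7% and 46.7%. With either strand counted, 25.3% of longer peaks of replicate 2 had one.

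For overlap with the other list, the shares of longer peaks in replicates 1 and 2 were 10.7% and 5.49% with 50% of the peak covered, 6.05% and 2.27% with the whole peak covered, 11.2% and 6.65% at 150 bp, and 8.32% and 5.004% with both lists limited to scores no lower than their medians, where 5.36% of replicate 1 short peaks overlapped. In replicate 2, 46.2% of short peaks scored at or above the list median and 17.4% in its upper quartile. For all of these the cause was not tested.

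No paired analysis was possible because each replicate number has 1 list made from its IP and Input together and no result comes from a test. Shared-edge shares rest on 37 and 20 overlapping short peaks, chromosome shares on as few as 30 peaks, and without read counts the precision of a peak's edges is unknown.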
